A study of Danio rerio with 7 samples.

Results

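The cells described here are the twist1a-positive cells of the zebrafish cranial neural crest (NC) stream that carried genes of a matrix-rich mesenchyme but no transcript of the arch genes dlx6a and hand2. A cell counted as a member when it held at least 1 unique molecular identifier (UMI, a tag that marks 1 captured RNA molecule) of twist1a and at least 1 UMI of 3 or more of 7 marker genes. The markers were the matrix genes tnc (tenascin C), fmoda (fibromodulin) and postnb (periostin), the transcription factor gene foxc1a, the keratin gene krt18a.1, npb, which encodes the secreted peptide neuropeptide B, and 1 further gene. Members held no UMI of dlx6a or hand2, and none of the genes that mark other lineages: myl7 (heart muscle), spi1b (white blood cells), cdh5 (endothelium) and epcam (epithelium). These criteria found 463 members among 1246 twist1a-positive cells, in libraries of 2854 cells in all. The other 783 twist1a-positive cells served for comparison. Because measured counts chose the members, the 14 genes that the criteria read are described below without a test.

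The libraries came from AB strain zebrafish embryos that carried the transgene Tg(sox10:nEOS)w18, which drives a photoconvertible nuclear protein from the sox10 promoter, with no mutation and no treatment in any group. Cells of the stream to the first pharyngeal arch were converted with light, dissociated, sorted by fluorescence-activated cell sorting and sequenced on the droplet platform of 10x Genomics. The timeline stages, in hours after fertilization (hpf), were 12, 14, 18, 20, 24 and 30, made with chemistry version 2, and a second 18 hpf library used version 3. Each stage and chemistry held 1 library, so no difference between stages could be tested, and the sort kept any cell in the converted region whose sox10 reporter was on, whatever its later fate.

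Cranial NC cells leave the dorsal neural tube and enter the pharyngeal arches, where many become ectomesenchyme, the precursor of the facial skeleton and connective tissue. Twist1 is required for that mesenchymal fate, and the nested Dlx genes with hand2 give arch cells their dorsal or ventral identity. Tenascins, periostin and fibromodulin are secreted into the matrix of embryonic connective tissue, and Foxc1 is a transcription factor of cranial mesenchyme.

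Members were scarce at 12 and 14 hpf and outnumbered the other twist1a-positive cells at 24 hpf. At 20 hpf the classes were of similar size, 162 members and 152 others. They were 120 of 379 twist1a-positive cells in the second 18 hpf library (31.7%, exact Clopper-Pearson 95% interval 27.01% to 36.6%). They were 162 of 314 cells at 20 hpf (51.6%, 45.9% to 57.2%), 130 of 222 at 24 hpf (58.6%, 51.8% to 65.1%) and 38 of 85 at 30 hpf (44.7%, 33.9% to 55.9%). The first 18 hpf library had 12 members in 110 cells (10.9%, 5.77% to 18.3%), and that of 14 hpf had 1 in 72. None was found in 64 twist1a-positive cells at 12 hpf, where 3 counts of the total set the largest share that a count of 0 allows, 4.69%. The 450 members of the second 18, 20, 24 and 30 hpf libraries are described from here on, and values given as a run of 4 follow that order of libraries. Intervals cover counting error only.

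**Figure D1:**
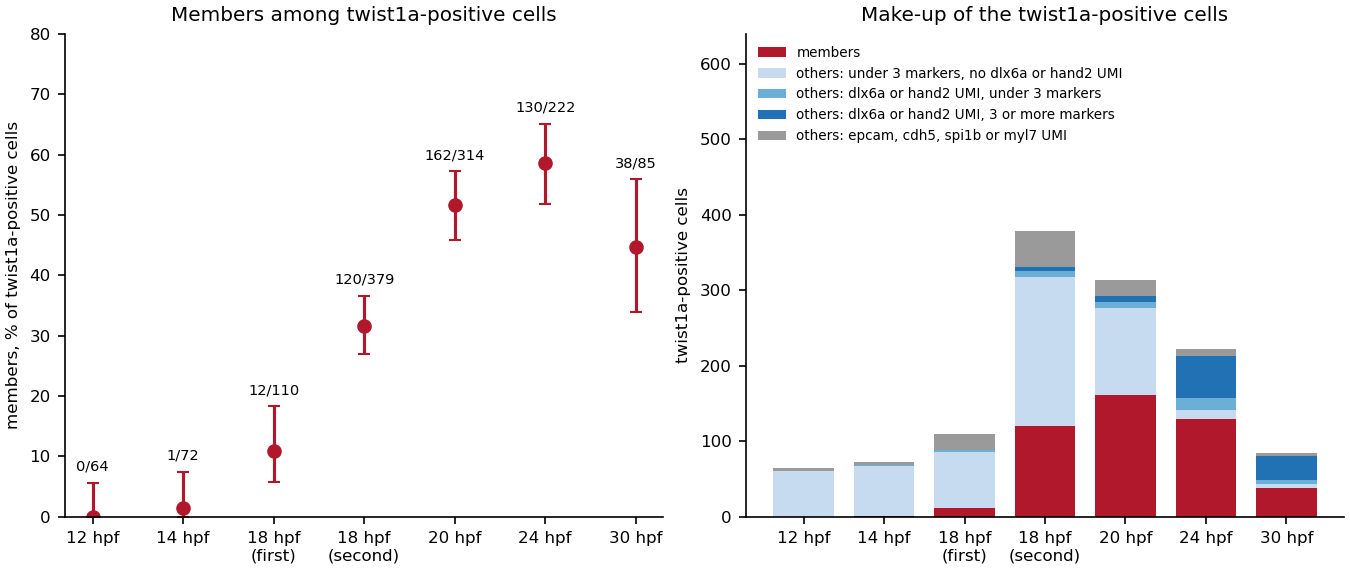
Left, members as a percentage of the twist1a-positive cells of each library, with exact 95% intervals for counting error. Right, number of twist1a-positive cells by class: members, cells with dlx6a or hand2, cells with fewer than 3 of the 7 markers, and cells with a UMI of another lineage. Members took 58.6% at 24 hpf, and most other cells carried dlx6a or hand2 at 24 and 30 hpf but not earlier.

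The cells that members were set against changed with stage. A UMI of dlx6a or hand2, but none of epcam, cdh5, spi1b or myl7, was found in 5.02, 10.5, 78.3 and 80.9% of the others. At the second 18 and 20 hpf, 198 and 115 of the others instead had fewer than 3 markers and neither arch gene. A further 48, 21, 9 and 4 others held a UMI of epcam, cdh5, spi1b or myl7. Members were therefore compared mostly with marker-poor cells at the earlier stages and with dlx6a or hand2 cells at the later ones, and stage and make-up of the comparison cannot be told apart.

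Depth bears on a class defined by detection. The median total per cell was 30566, 19759.5, 13890.5 and 12671 UMIs in members, against 26331, 19872, 13536 and 13400 UMIs in the other cells. Library totals ran from 1711154 to 23950255 UMIs, with 131 to 979 cells each. With each cell thinned to 10000 UMIs, members were 18.6%, 37.7%, 59.3% and 43.3% of twist1a-positive cells, so the shares at the second 18 and 20 hpf rested partly on depth. Of the 38 members at 30 hpf, 6 were called doublets, as were 6 of the 47 others, and no member of the other 3 libraries was. No member shared its cell barcode with another library.

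Of all 463 members, 133 held exactly 3 markers, 128 held 4, 117 held 5, 67 held 6 and 18 held all 7. The pair tnc and postnb was found together in 68.3, 64.8, 73.8 and 63.2% of members. The pair npb and fmoda was found together in 0, 22.2, 43.1 and 10.5%, so the marker combination of a member differed by stage more for these genes than for tnc and postnb. Cells with exactly 3 markers and cells with 2 stand on either side of the threshold. At 20 hpf, tnc summed to 72.0 CPM in the 55 members with exactly 3 markers, against 43.2 CPM in the 62 cells with 2 markers that met every other criterion. In the same order, postnb was at 70.0 and 25.2 CPM, fmoda at 73.9 and 17.9 CPM, foxc1a at 31.5 and 4.89 CPM and prrx1a, which the criteria did not read, at 142 and 78.2 CPM. Their twist1a levels were 1552 and 1553 CPM, and their median totals were 18735 and 20263 UMIs. The marker levels on either side are set in part by the number of markers asked for. For prrx1a the order was not the same in every library. At the second 18 hpf it was at 65.9 CPM in 45 cells with 3 markers, against 76.1 CPM in 61 cells with 2. It was at 65.1 and 45.5 CPM at 24 hpf (13 and 6 cells), and at 346 and 91.9 CPM at 30 hpf (9 and 3 cells). CPM here is the sum of a gene's UMIs over the cells of a class in a library, divided by all UMIs of those cells and multiplied by 1000000.

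The matrix genes of the criteria had different courses in members. Tenascin C (tnc), a glycoprotein that modulates cell adhesion, was at 193, 149.9, 210.3 and 234 CPM in members, against 25.6, 31.8, 117 and 66.6 CPM in the other cells. Periostin (postnb), a ligand of integrins in collagen-rich matrix, was at 79.5, 135, 225 and 286 CPM in members, against 20.8, 43.8, 117 and 101 CPM in the other cells. Fibromodulin (fmoda), a proteoglycan that binds collagen fibrils, was at 23.8, 72.0, 271 and 111 CPM in members, against 13.4, 43.1, 91.5 and 86.1 CPM in the other cells. Thus postnb was higher in members of each later library, tnc stayed within 149.9 to 234 CPM, and fmoda peaked at 24 hpf. The transcription factor gene foxc1a was at 71.4, 75.1, 35.7 and 43.8 CPM in members, against 2.97, 4.49, 14.9 and 32.5 CPM in the other cells. It was farthest above the other cells at the second 18 and 20 hpf. Keratin krt18a.1 was at 121, 275, 478 and 669.8 CPM in members, against 405, 291, 529.7 and 714 CPM in the other cells. Its summed level was thus not higher in members, although more of them held it, as the criteria favour. A krt18a.1 UMI was found in 78.3, 79.0, 94.6 and 100% of members, against 30.9, 31.6, 78.3 and 95.7% of the other cells. The basic helix-loop-helix gene twist1a, carried by every cell of both classes, was at 2281, 1556, 1409 and 714 CPM in members, against 1965, 1345, 778 and 483 CPM in the other cells.

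**Figure D2:**
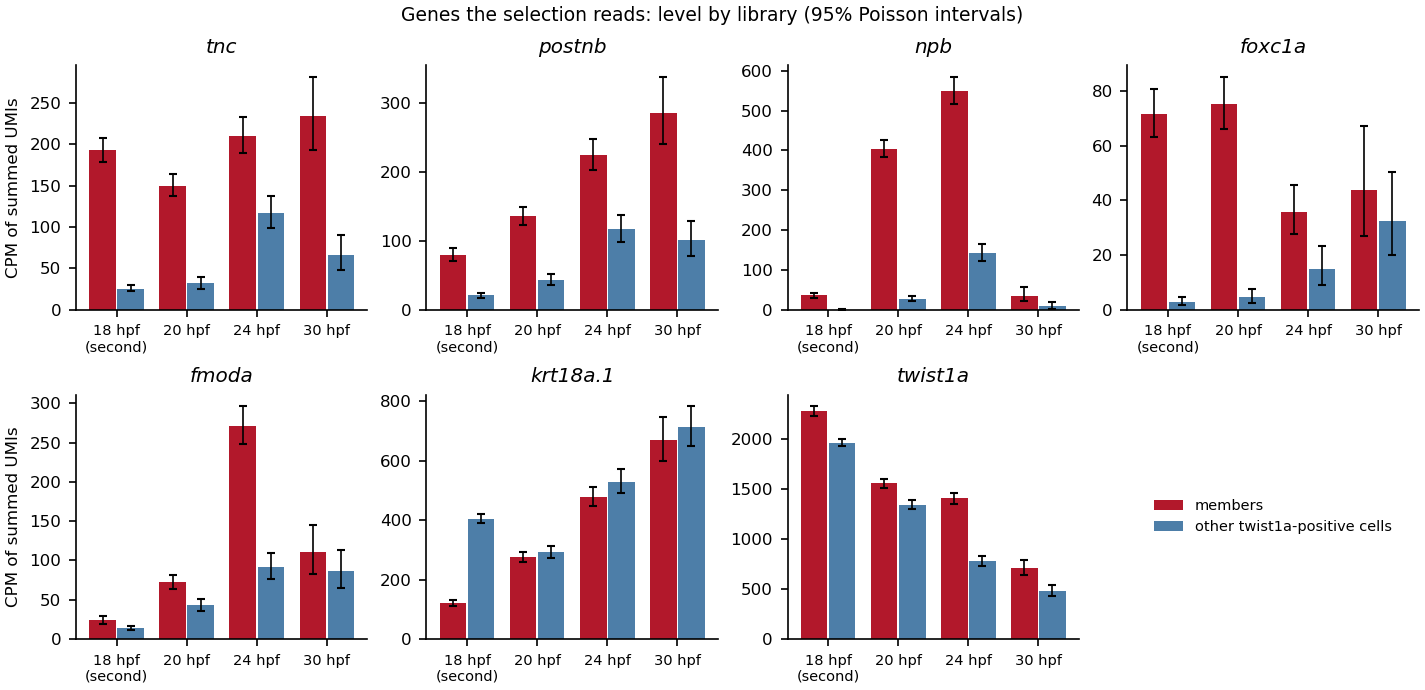
Level of 7 of the 8 genes that the criteria read positively, in CPM of summed UMIs with exact 95% Poisson intervals, in members and in other twist1a-positive cells of 4 libraries. The bars show postnb increasing over the libraries in members, npb high at 20 and 24 hpf, and krt18a.1 similar in both classes or higher in the others. They are a description, because these genes chose the members.

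Shares of cells with a UMI gave the same order for tnc. They were 94.2, 84.6, 86.2 and 81.6% of members, against 34.0, 31.6, 42.4 and 55.3% of the other cells. In spi1b-positive cells without twist1a, they were 5.78, 0, 0 and 0%. This set was chosen by a spi1b UMI alone and was mixed. A UMI of epcam was held by 10.4, 33.3, 37.5 and 0% of its cells, and 1 of cdh5 by 15.0% at the second 18 hpf. Those cells numbered 173, 45, 8 and 7 and had median totals of 25807, 20890, 19830 and 16691 UMIs. Thinned to 10000 UMIs, 70, 66.9, 83.04 and 79.3% of members still held tnc, against 19.4, 23.9, 38.2 and 43.6% of the others. For krt18a.1, a UMI was found in 24.9% of the spi1b-positive cells of the second 18 hpf library and in 11.1% at 20 hpf, so single krt18a.1 molecules carried little information on a cell there.

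Neuropeptide B (npb) behaved unlike the other markers. A UMI of npb was held by 8 of 120, 97 of 162, 67 of 130 and 5 of 38 members, against 2 of 259, 57 of 152, 43 of 92 and 4 of 47 other cells. At 20 hpf, however, 17 of 45 spi1b-positive cells (37.8%) also held npb, and at 24 hpf 4 of 8 did. An npb UMI at these stages was thus about as frequent in that mixed set as in the other twist1a-positive cells. Cells with 5 or more npb UMIs were a different matter. There were 6, 35, 26 and 1 of them among members, 0, 1, 9 and 0 among the other cells, and 0, 1, 0 and 0 among spi1b-positive cells. The highest member count was 59, 164, 135 and 8 npb UMIs in a cell. The summed level of npb was 36.2, 404, 549.7 and 35.5 CPM in members, against 0.424, 28.0, 143 and 8.13 CPM in the other cells and 0.220, 28.1, 31.3 and 0 CPM in spi1b-positive cells. High npb was thus held by a small number of cells at 20 and 24 hpf, most of them members. If npb was not counted as a marker, 120, 137, 128 and 38 members remained, an alternative added after the data were seen.

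**Figure D3:**
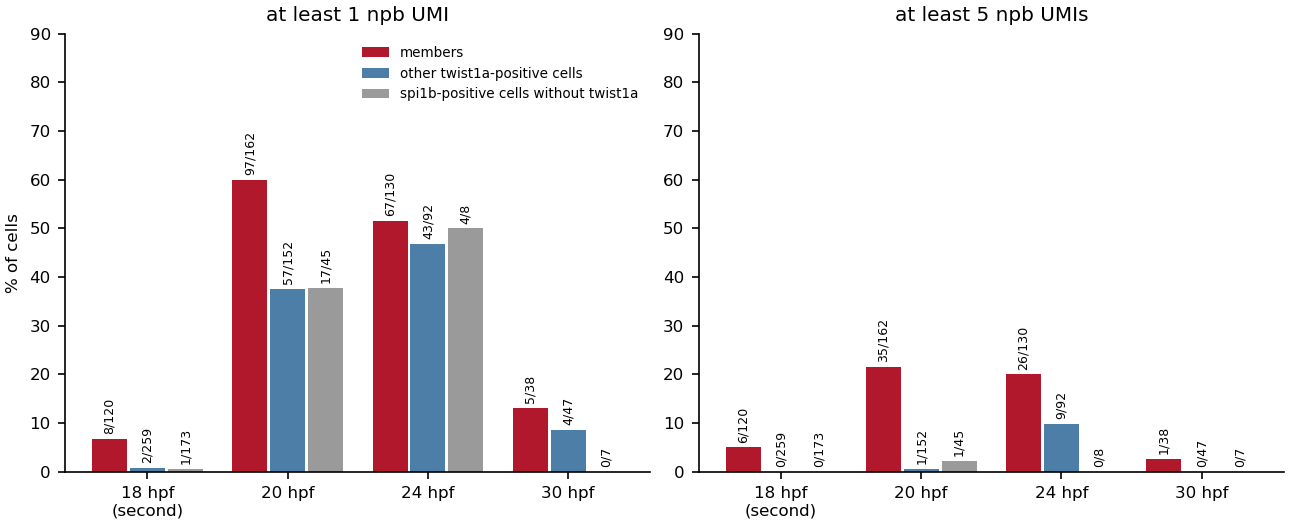
Percentage of cells with at least 1 npb UMI (left) and with at least 5 (right) in members, other twist1a-positive cells and spi1b-positive cells without twist1a, by library. At 20 hpf the share with at least 1 UMI was 37.8% in spi1b-positive cells, against 37.5% in the other twist1a-positive cells, while cells with at least 5 UMIs were mostly members.

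The label of crest mesenchyme was checked with markers outside the criteria. The ectomesenchyme gene dlx2a was detected in 86.7, 92.0, 90.8 and 76.3% of members, against 82.2, 87.5, 91.3 and 93.6% of the other cells. A UMI of sox10, foxd3 or crestin, genes of migrating NC, was held by 99.2, 49.4, 36.9 and 31.6% of members. A UMI of prrx1a or prrx1b, homeobox genes of limb and facial mesenchyme, was held by 85.8, 91.4, 86.2 and 92.1%. In the other cells a UMI of sox10, foxd3 or crestin was found in 97.3, 64.5, 54.3 and 53.2%. Of spi1b-positive cells, 2.31, 6.67, 0 and 0% held dlx2a and at most 2.22% of a library held prrx1a or held prrx1b, so these shares in members were above that background. A UMI of sox10 alone said less at the second 18 hpf, where 43.9% of spi1b-positive cells held it. The gene sox10 was found in 100, 53.8, 41.7 and 55.6% of members without a dlx2a UMI, against 99.0, 40.3, 31.4 and 24.1% of members with one. Genes of head mesoderm (tcf21, tbx1, foxf1, meox1) were found in 6.67, 7.41, 10.8 and 26.3% of members, against 7.72, 3.29, 7.61 and 6.38% of the other cells. Endothelial genes (kdrl, etv2, tie1) were found in 5.83, 1.85, 0.769 and 7.89% of members, against 4.63, 1.97, 1.09 and 0% of the other cells. Genes of muscle (myf5, myod1, myog) were found in at most 2.47% of members of a library, and lcp1 or coro1a of blood cells in at most 0.833%. Epithelial transcripts (cdh1, cldnb, krt4) were found in 20.8% of members of the second 18 hpf library, at a summed 7.57 CPM, and in at most 4.62% elsewhere.

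A small group of members went against the label for some markers and not for others. In a clustering of all cells of each table that left out the genes of the criteria, 30 of the 450 members (8, 9, 5 and 8 by library) fell in 2 small clusters led by cxcl12a, which encodes a chemokine. Only 6.67% of these 30 held dlx2a, and none held tfap2a or dlx5a, genes of NC and arch ectomesenchyme, against 94.8%, 83.8% and 32.6% of the 420 members elsewhere. The NC gene sox10 went the other way, in 66.7% of the 30 and 52.4% of the rest. So did the mesenchyme gene prrx1a, in 96.7% and 77.9%. Some genes of head mesoderm were frequent in the 30. The T-box gene tbx1 was found in 63.3%, meox1 in 56.7% and tcf21 in 26.7%, against 0%, 0.714% and 0% of members elsewhere. The gene foxf1 was not counted for the 30. It was found in 6.25, 0, 8.33 and 0% of members without a dlx2a UMI, against 0.962, 2.01, 6.78 and 6.90% of members with one. The chondromodulin gene cnmd was found in 83.3% of the 30 and six2a in 66.7%, against 0.238% and 5.24% of the rest. Both groups held genes of the criteria because every member had to hold 3 or more markers, so this sharing says nothing about their kinship. The markers held differed. The gene foxc1a was found in 73.3% of the 30 and 42.4% of the rest, tnc in 60% and 89.3%, and npb in 10% and 41.4%. With libraries pooled, fmoda was at 488 CPM in the 30 and 74.6 CPM in the rest, and krt18a.1 at 794 and 248 CPM. These clusters were formed from the same cells, so the differences are a description. Their median total was 14464 UMIs per cell, against 18899.5 UMIs in the other members.

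**Figure D4:**
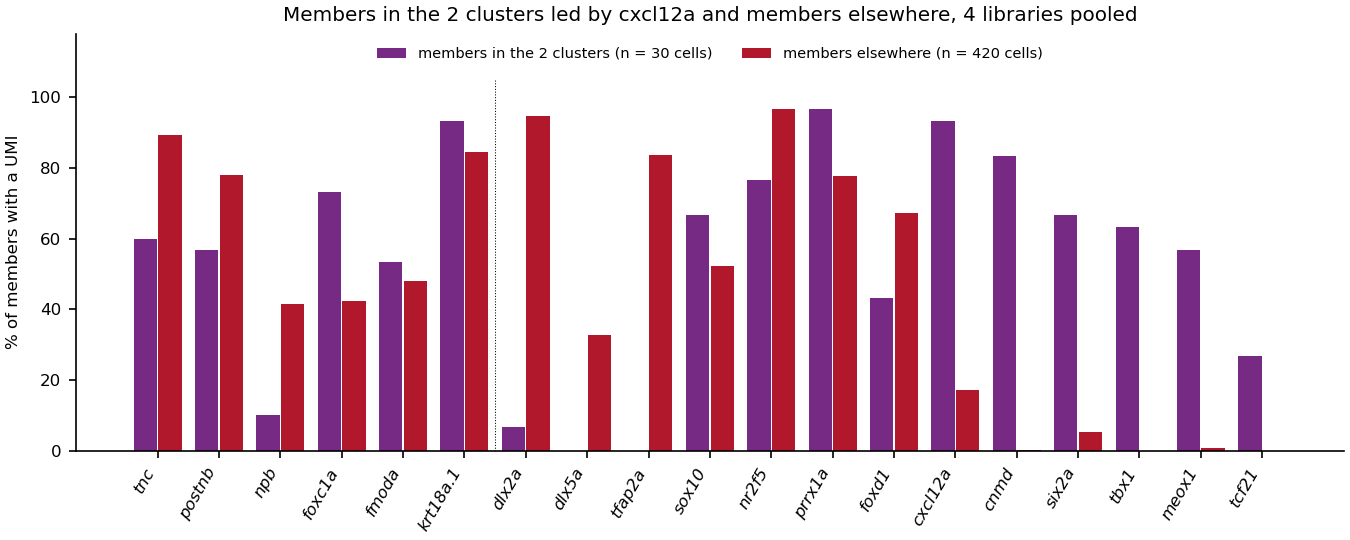
Percentage of members with at least 1 UMI of each gene, for the 30 members in the 2 clusters led by cxcl12a and the 420 members elsewhere, with the 4 libraries pooled. Left of the dotted line are 6 of the markers of the criteria and right of it other genes. The 30 cells lacked dlx2a, dlx5a and tfap2a almost entirely and held tbx1, meox1 and cnmd. The genes sox10 and prrx1a were found in a larger share of them than of the rest.

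How far members lay apart from other cells depended on the resolution of the clustering. At the resolution of 0.8 used above most shared a cluster with other cells. Of the 120 members in the second 18 hpf library, 88 lay in its largest cluster beside 81 of the 259 other cells, and 24 lay in a cluster led by prdm12b that held 121 others. At 20 hpf, 75 members and 90 others lay in a cluster led by cyp4t8, twist1a and dlx2a, and 66 members and 22 others in a cluster whose leading genes included grem2b, ccn1 and npb. At 24 hpf, 114 of 130 members and 81 of 92 others shared a cluster led by barx1 and dlx5a, and at 30 hpf 30 members and 45 others did. At a finer resolution of 1.2, some clusters held mainly members. In the timeline table a cluster of 94 cells led by npb, tnn and prrx1b held 85 members and 7 others, and 1 of 49 cells whose leading genes included npb, snai1a and foxd2 held 40 members and 9 others. In the second 18 hpf table a cluster of 15 cells led by npb, zgc:162612 and foxd2 held 15 members and 0 others. Together with the cxcl12a clusters these took a part of the members, while 81 members lay beside 93 others in the cluster led by cyp4t8 and 70 beside 78 in the largest shared cluster of the second 18 hpf library. The genes npb and twist1a, which the criteria read, were counted among leading genes only after the clusters had been formed.

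Expression in members was then compared with that in the other twist1a-positive cells of the same library, over genes that the criteria did not read. UMIs were summed per library and class, which gave 4 pairs of profiles, and fitted with edgeR's quasi-likelihood test with the library as a block. Of 8944 genes tested, 111 (1.24%) were higher in members and 214 (2.39%) were lower at a Benjamini-Hochberg adjusted p under 0.05 (3.63% either way), and 995 had an unadjusted p under 0.05. The median log2 change over all genes tested was -0.0030. Of the 111 higher genes, 104 were higher in members of 4 of 4 libraries, against 87 of 214 lower genes that were lower in 4 of 4. In the sentences that follow, a log2 change is members over other cells, its standard error is worked back from the edgeR statistic, and adjusted p is edgeR's over all genes tested. The classes were drawn from the same cells by other genes, so a gene correlated with a criterion differs by construction to an extent that was not tested. Without the library block edgeR called 0 of 7590 genes (124 at an unadjusted p under 0.05), and the DESeq2 Wald test with the block called 56 higher (0.626%) and 50 lower (0.559%). Without the second 18 hpf library 53 genes were higher and 63 lower, and without the 20 hpf library 56 and 71. Of 99 called genes named in the text, 36 were called without each library in turn, 22 were called wherever they were tested, and 41 lost the call at least once.

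The count of lower genes depended on which other cells were kept. Once the others with a UMI of epcam, cdh5, spi1b or myl7 were left out, 125 genes (1.46%) were higher in members and 54 (0.63%) lower, of 8578 tested (2.09% either way). Against others that also lacked dlx6a and hand2, in the second 18, 20 and 24 hpf libraries, 225 of 8857 genes (2.54%) were higher and 103 (1.16%) lower (3.7% either way). At 24 hpf these others were only 11 cells with 148003 UMIs, against 130 members with 1820860 UMIs. The 30 hpf library had 5 such cells and did not enter, so this comparison rests mainly on the second 18 and 20 hpf libraries. The 12 named lower genes, chosen by size of change, included 5 globin genes (hbae1.1, hbae1.3, hbae3, hbbe1.1, hbbe3), the epithelial genes bcam and cd9b, and nkx2.3 of pharyngeal endoderm. The others named were cyt1l, tmsb1, vgll4l and zgc:171775. Of hbae3, members held 0, 2, 4 and 1 UMIs, against 90, 10, 2174 and 4 UMIs in the others, and a single cell held 99.95% of those at 24 hpf. The same held for hbae1.1, hbae1.3 and hbbe3, with 99.97%, 99.9% and 99.96% of the 24 hpf UMIs of the others in 1 cell. The criteria read no gene of red blood cells. Without the other-lineage cells, 4 of these 12 genes were still tested, the globins hbae1.1, hbae3, hbbe1.1 and hbbe3, and all 4 were lower in members. In the fit against all others without the 24 hpf library, hbbe1.1 lost its edgeR call (log2 change -2.38, adjusted p = 0.220). Among the genes named below, cdh1, cdon, emx2, ephb3a, fgfrl1b, fli1a, her6, sox5 and twist1b also lost their call in that comparison (adjusted p from 0.0801 to 0.9998), and alx1, alx4b, lama5 and vox had too few counts to be tested in it. Others that lost it are given with their values. Against others that also lacked dlx6a and hand2, 16 of 74 called genes of the text that were tested lost the call (adjusted p from 0.0643 to 0.998). These were cdh1, cdh6, cdon, col18a1a, col1a1b, crabp2a, cxcr4b, dlx1a, ephb3a, fgfrl1b, hapln1a, her6, msx3, sox5, tcf7l1a and twist1b, while 25, tnn and dlx4a among them, could not be tested there.

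The 12 named higher genes were tbx15, six2a, cnmd, zgc:162612, crabp2a, pdgfrb, col9a1a, cygb1, tnn, meox1, arhgap36 and alx4a, and all 12 passed the test again without the other-lineage cells. They divided by whether the 30 cells of the cxcl12a clusters supplied them. Those 30 cells held 99.2% of the UMIs that the members of the 4 libraries had of cnmd, 93.5% of meox1, 74.7% of crabp2a, a retinoic acid-binding protein gene, 71.7% of six2a and 70.5% of pdgfrb, the PDGF receptor of pericytes. They held 47.7% of tbx15, 40.4% of the cartilage collagen col9a1a, 37.8% of alx4a and 52.8% of cygb1, a cytoglobin gene. They held 8.26%, 8.76% and 2.90% of the UMIs of tnn, arhgap36 and zgc:162612. When these clusters and the other-lineage cells were left out of both classes, a setting added after the data were seen, 62 genes (0.724%) were higher and 40 (0.467%) lower of 8559 tested (1.19% either way). Of the 12 named genes 7 were then tested, and 4 passed: six2a, tnn, arhgap36 and zgc:162612. In cells with a dlx2a UMI alone, also added later, 66 genes (0.774%) were higher and 24 (0.281%) lower of 8526 (1.06% either way). Of the called genes of the text, 28 of 77 tested lost the call in the first setting and 29 of 71 in the second. The 25 lost in both were ackr3b, cdh1, cdon, col18a1a, col2a1b, cxcl12a, cxcr4b, ebf3a, ephb3a, fgfrl1b, fli1a, has2, her6, hoxa2b, jag1b, meis1a, msx3, nog1, pcdh18b, rspo3, sox10, sox5, tcf7l1a, tgfbi and twist1b. Lost in the first alone were col9a1a, crabp2a and cygb1, and in the second alone col12a1a, epha4a, erbb3b and gch2. With 1 library left out, the call was lost for meox1 (without second 18 or 20 hpf, adjusted p to 0.148) and cygb1 (without 24 hpf, adjusted p = 0.0695). Of 10 tested head mesoderm genes, 3 (meox1, alx1 and tbx15) were higher in members and 1 was lower, with a median of 0.51. Without other-lineage cells 4 of 8 were higher and 0 lower (median 2.19). Against others that also lacked dlx6a and hand2, 5 of 7 were higher and 0 lower (median 2.11). In cells with dlx2a 1 of 5 was higher and 0 lower (median 0.35). Against others with 3 markers and dlx6a or hand2, 0 of 3 were higher and 1 lower.

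The gene tnn, which encodes tenascin N, another tenascin of connective tissue, stood 2.58 log2 units above the other cells. Its level was 0.811, 2.76, 59.9 and 252 CPM in members, against 0, 0.690, 13.3 and 32.5 CPM in the other cells (log2 change 2.58 ± 0.25, adjusted p = 4.03e-05). Members were above the others in each of the 4 libraries, although the second 18 and 20 hpf values rested on 3 and 9 UMIs in members. The share of members with a tnn UMI was 1.67, 4.94, 34.6 and 65.8%, against 0, 1.32, 16.3 and 25.5% of the other cells and 2.89, 0, 12.5 and 0% of spi1b-positive cells, where the 24 hpf value was 1 cell of 8. Among cells with dlx2a it was also higher in members (log2 change 2.49 ± 0.24, adjusted p = 3.72e-05). The gene arhgap36, whose mammalian counterpart activates Hedgehog signalling, was at 14.1, 9.19, 26.9 and 12.5 CPM in members, against 2.55, 0.345, 7.04 and 1.63 CPM in the other cells (log2 change 2.53 ± 0.32, adjusted p = 2.81e-04). The uncharacterised gene zgc:162612 was at 25.4, 10.1, 4.94 and 4.17 CPM in members, against 1.41, 0, 1.56 and 1.63 CPM in the other cells (log2 change 3.95 ± 0.45, adjusted p = 1.45e-04), so its excess lay mainly in the second 18 and 20 hpf libraries. The T-box gene tbx15 was at 15.15, 5.52, 4.94 and 10.4 CPM in members, against 0.707, 0, 0.782 and 0 CPM in the other cells (log2 change 4.37 ± 0.51, adjusted p = 1.65e-04).

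Fibrillar collagens were higher in members. Of 13 tested genes of collagens and fibril assembly, 7 were higher and 1, col18a1a, was lower, with a median log2 change of 0.58 beside -0.0030 over all genes. Type I collagen, the main fibril of skin and bone, showed it in both chains tested with strong counts. The chain gene col1a1a was at 49.0, 97.2, 174 and 282 CPM in members, against 19.7, 50.1, 86.1 and 89.4 CPM in the other cells (log2 change 1.19 ± 0.12, adjusted p = 4.03e-05). The chain gene col1a2 was at 10.5, 21.5, 96.7 and 255 CPM in members, against 10.2, 12.1, 39.1 and 56.9 CPM in the other cells (log2 change 1.12 ± 0.24, adjusted p = 0.0166). Its classes were nearly equal at the second 18 hpf and apart at 24 and 30 hpf. Without other-lineage cells the col1a2 difference was larger (log2 change 2.62 ± 0.19, adjusted p = 2.42e-06). The regulatory chain col5a1 was at 47.6, 27.9, 47.2 and 156 CPM in members, against 16.7, 13.5, 28.2 and 48.8 CPM in the other cells (log2 change 1.27 ± 0.16, adjusted p = 2.78e-04). The other genes higher were col1a1b, col11a1a, col12a1a and serpinh1b, the collagen chaperone. For col18a1a, a basement membrane collagen, the change was -1.32 (adjusted p = 0.00211), and -0.53 (adjusted p = 0.452) without other-lineage cells. A fit to 3 libraries lost the call of col1a2 (without 20, 24 or 30 hpf, adjusted p to 0.100), col1a1b (without 20, 24 or 30 hpf, adjusted p to 0.185), col12a1a (without second 18 hpf, adjusted p = 0.0812), serpinh1b (without second 18 hpf, adjusted p = 0.0951) and col18a1a (without second 18 or 20 hpf, adjusted p to 0.102).

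Against all other cells, other matrix genes moved both ways. Of 17 tested matricellular and hyaluronan genes, 2 were higher (tnn and tgfbi) and 2 lower (has2 and hapln1a), with a median of 0.15. This balance was not the same in other fits. They differ in the cells and genes tested, and some also in libraries, which cannot be told apart. Without other-lineage cells 5 of 16 were higher and 1 lower, with a median of 0.57. Against others that also lacked dlx6a and hand2, 8 of 13 were higher and 0 lower, with a median of 0.78. In cells with dlx2a 3 of 15 were higher and 1 lower. Against others with 3 markers and dlx6a or hand2, 2 of 10 were higher and 2 lower. The collagen triple helix repeat gene cthrc1a was at 66.3, 125, 168 and 213 CPM in members, against 23.6, 41.4, 61.0 and 9.75 CPM in the other cells (log2 change 1.75 ± 0.22, adjusted p = 2.99e-04). The matrilin gene matn4, of cartilage and connective tissue matrix, was at 16.5, 11.0, 14.8 and 50.1 CPM in members, against 3.11, 4.83, 3.91 and 3.25 CPM in the other cells (log2 change 2.14 ± 0.30, adjusted p = 8.05e-04). Both were higher in members of every library. The hyaluronan link protein gene hapln1a went the other way, at 0.270, 7.97, 89.5 and 188 CPM in members, against 12.7, 21.7, 358 and 437 CPM in the other cells (log2 change -1.79 ± 0.22, adjusted p = 2.69e-04). Its level in members was below that of the others in each library even though it was higher at each later stage in both classes. Its change against others that also lacked dlx6a and hand2 was -0.38 and did not pass (adjusted p = 0.882). That fit left out the 30 hpf library, where hapln1a was highest in both classes. The enzyme gene has2, which makes hyaluronan, was called at -3.39 but not without other-lineage cells (adjusted p = 0.593). Of 8 tested chondrogenic genes, 5 were higher (col2a1b, col9a1a, col11a1a, sox5 and sox6) and 1, hapln1a, lower. The cartilage master gene sox9a was at 14.6, 0.919, 0 and 0 CPM in members, against 9.48, 1.38, 0.782 and 0 CPM in the other cells, and did not pass (adjusted p = 0.857). Leaving out a library ended the call for tgfbi (without second 18, 20 or 30 hpf, adjusted p to 0.158), col2a1b (without second 18, 20 or 30 hpf, adjusted p to 0.270), sox5 (without second 18 or 20 hpf, adjusted p to 0.442) and sox6 (without second 18 hpf, adjusted p = 0.232).

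Among 14 tested mesenchymal regulators, 5 were higher in members (snai1a, prrx1b, ebf2, ebf3a and fli1a) and 2 lower (twist1b and meis1b), with a median log2 change of 0.29. The zinc finger gene snai1a, a driver of epithelial-mesenchymal transition, was at 36.2, 141, 165 and 234 CPM in members, against 5.37, 34.2, 79.8 and 87.8 CPM in the other cells (log2 change 1.76 ± 0.20, adjusted p = 1.14e-04). The homeobox gene prrx1b was at 29.8, 73.6, 170.2 and 321 CPM in members, against 13.2, 39.7, 83.7 and 187 CPM in the other cells (log2 change 0.95 ± 0.10, adjusted p = 1.00e-04). Its paralog prrx1a was at 71.7, 131, 142 and 236 CPM in members, against 65.2, 82.5, 121 and 149.5 CPM in the other cells, a difference that did not pass (log2 change 0.40 ± 0.11, adjusted p = 0.0728). The gene ebf2, of the early B-cell factor family with roles in bone and fat precursors in mouse, was at 37.1, 30.04, 46.1 and 98.1 CPM in members, against 15.0, 13.5, 15.6 and 13.003 CPM in the other cells (log2 change 1.5003 ± 0.20, adjusted p = 4.41e-04). Each of snai1a, prrx1b and ebf2 was higher in members of 4 of 4 libraries. Of 7 tested genes of the families of six2a and eya1, those 2 were higher and none was lower. The gene eya1, which encodes a transcriptional cofactor, was at 42.5, 25.1, 31.9 and 41.7 CPM in members, against 15.3, 14.8, 18.8 and 17.9 CPM in the other cells (log2 change 1.103 ± 0.17, adjusted p = 0.00171). Without 1 library the call failed for ebf3a (without second 18 hpf, adjusted p = 0.256), fli1a (without second 18 or 20 hpf, adjusted p to 0.237), twist1b (without second 18, 20 or 30 hpf, adjusted p to 0.260) and eya1 (without second 18 hpf, adjusted p = 0.0782).

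**Figure D5:**
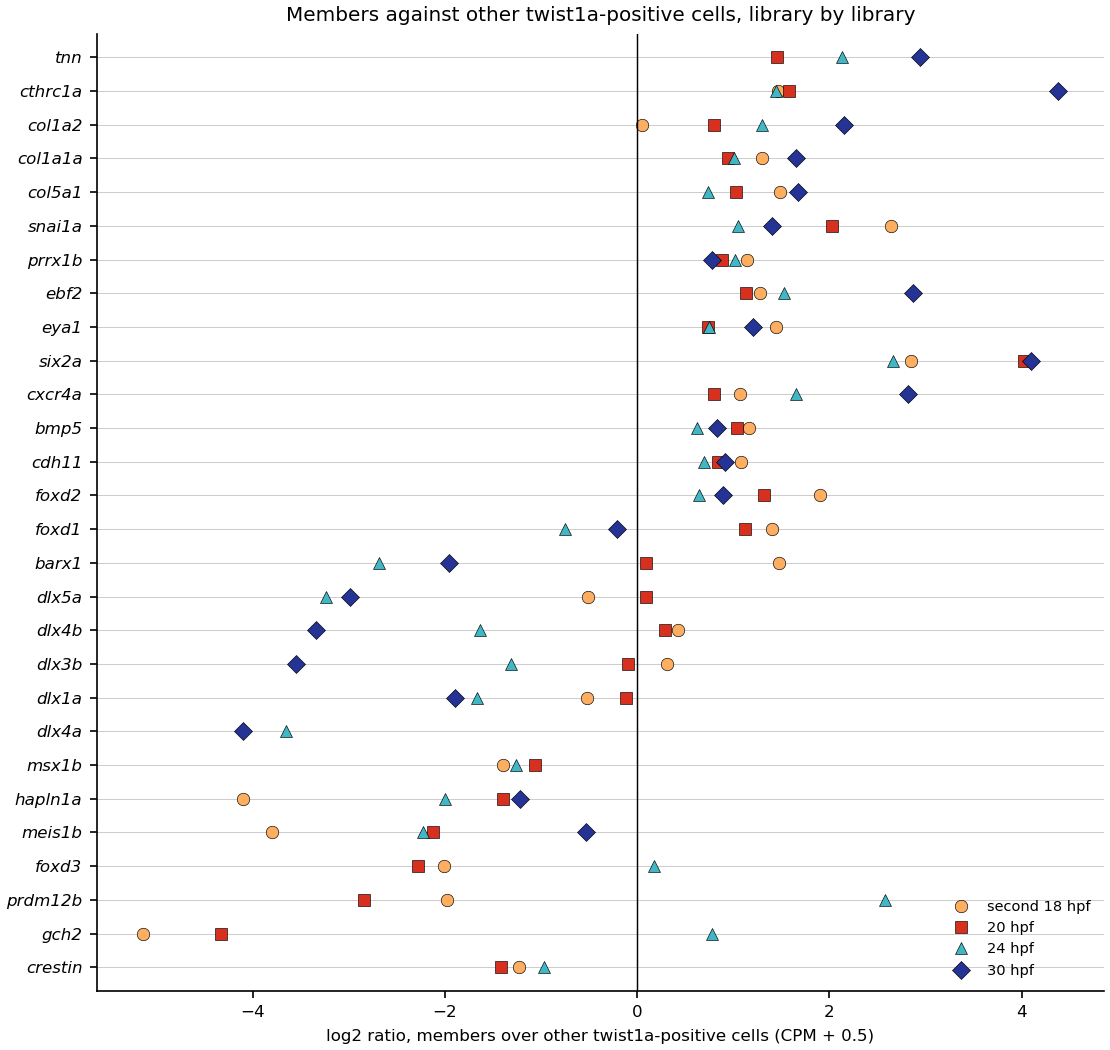
Log2 ratio of members over other twist1a-positive cells in each of 4 libraries (CPM with 0.5 added), for genes outside the criteria, where points with fewer than 10 UMIs over both classes are left out. The genes from tnn down to foxd2 sit right of 0 in every library shown, dlx1a, dlx4a and hapln1a sit left of 0, and dlx5a, dlx4b and dlx3b lie near 0 at the second 18 and 20 hpf and far left at 24 and 30 hpf.

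Of 13 tested genes of dorsal arch and frontonasal mesenchyme, 6 were higher in members and 0 lower at the adjusted threshold, with a median log2 change of 0.83. They were jag1b, alx1, alx4a, alx4b, her6 and six2a. The size of this shift differed among fits that differ in the cells and genes tested and, for some, in libraries. Without other-lineage cells 3 of 11 were higher and 0 lower, with a median of 0.28. Against others that also lacked dlx6a and hand2, 5 of 14 were higher and 1, tfap2b, lower, with a median of 0.17. The median was 0.39 in cells with dlx2a. It was 0.82 against others with 3 markers and dlx6a or hand2, where 5 of 10 were higher and 1 lower. The Alx genes pattern the midface, and alx4a was at 18.7, 4.597, 4.94 and 10.4 CPM in members, against 3.96, 1.04, 1.56 and 0 CPM in the other cells (log2 change 2.24 ± 0.35, adjusted p = 0.00150). The gene alx1 was at 23.0, 3.37, 3.84 and 2.09 CPM in members, against 4.38, 1.73, 3.13 and 0 CPM in the other cells, and alx4b at 17.3, 3.37, 4.39 and 2.09 CPM in members, against 0.707, 0, 0.782 and 3.25 CPM in the other cells. The Alx excess was thus clearest in the second 18 hpf library, where members held 85, 69 and 64 UMIs of alx1, alx4a and alx4b. The Notch ligand jag1b, which marks the dorsal arch, was at 3.79, 12.9, 25.3 and 37.6 CPM in members, against 1.56, 3.797, 12.5 and 1.63 CPM in the other cells (log2 change 1.62 ± 0.33, adjusted p = 0.0131). Of 10 tested periocular mesenchyme genes, 1, foxd2, was higher and 1 was lower. Calls that failed without a library were those of jag1b (without 20 hpf, adjusted p = 0.152) and her6 (without second 18 or 30 hpf, adjusted p to 0.105).

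At 24 and 30 hpf, each of the 6 tested Dlx genes of the arches had a lower level in members than in the other cells. Absence of dlx6a and hand2 was a criterion, so a low level of a gene expressed with them is set to some extent by the choice of cells. Against others that also lacked both, in 3 libraries, edgeR called 0 of 5 tested Dlx genes (3 at an unadjusted p under 0.05), with a median of -0.0496, and dlx1a was at a log2 change of -0.47 (adjusted p = 0.392). Those libraries did not include 30 hpf, and 24 hpf had 11 such others, so this fit cannot decide the difference at the later stages. Against all others, over the 4 libraries, 2 of 6 tested Dlx genes were lower (dlx1a and dlx4a) and 0 higher, with a median of -0.88. The gene dlx1a was at 18.1, 9.501, 40.1 and 16.7 CPM in members, against 26.2, 10.4, 128 and 63.4 CPM in the other cells (log2 change -1.03 ± 0.23, adjusted p = 0.0232). The gene dlx4a was at 0, 0, 1.65 and 35.5 CPM in members, against 0.141, 0, 26.6 and 618 CPM in the other cells (log2 change -4.09 ± 0.25, adjusted p = 1.00e-06), almost all of it at 30 hpf. The partner of dlx6a, dlx5a, was at 54.1, 88.9, 64.8 and 75.1 CPM in members, against 77.1, 83.2, 616 and 598 CPM in the other cells. Members were somewhat below the others at the second 18 hpf, close to them at 20 hpf and far below them at 24 and 30 hpf. The change fitted over all 4 libraries did not pass (log2 change -1.50 ± 0.42, adjusted p = 0.0804). A fit with a term for a later effect that differs from the earlier one, added after the data were seen, called dlx5a (later minus earlier log2 change -2.96 ± 0.20, adjusted p = 7.69e-12). Others with dlx6a or hand2 were common only at the later stages, so this call is set to some extent by the choice of cells. That fit called 157 of 8944 genes, 85 more positive (0.95%) and 72 more negative (0.805%) at the later stages (1.76% either way). Even so, dlx5a was detected in 29.2, 35.8, 26.2 and 26.3% of members. In fits to 3 libraries the call was lost for dlx1a (without 24 or 30 hpf, adjusted p to 0.248).

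The ventral and intermediate arch gene barx1 showed a like course. This homeobox regulator of arch cartilage and tooth mesenchyme was at 7.57, 29.4, 121 and 134 CPM in members, against 2.40, 27.6, 782 and 522 CPM in the other cells. Its later effect was more negative by -2.93 ± 0.30 (adjusted p = 5.10e-08), which is likewise set to some extent by the choice of cells. The homeobox gene msx1b was lower in members of every library, at 48.7, 22.7, 25.3 and 0 CPM in members, against 129, 48.0, 61.0 and 9.75 CPM in the other cells (log2 change -1.30 ± 0.14, adjusted p = 1.14e-04). The homeobox gene gsc was nearly absent before 30 hpf, when it was at 6.26 CPM in members, against 148 CPM in the others (log2 change -4.01 ± 0.66, adjusted p = 0.00229). Of 14 tested genes of this list, emx2 was higher and msx1b, msx3 and bmp4 were lower, with a median of -0.29. This balance was not the same in fits with other comparison cells, which also differed in the genes tested and, for some, in libraries. Against others that also lacked dlx6a and hand2, 5 of 13 tested genes were higher (ednraa, edn1, emx2, foxd1 and foxf2a) and 1, msx1b, was lower, with a median of 0.45. The median was 0.0904 without other-lineage cells and 0.20 in cells with dlx2a. Without other-lineage cells msx3 and bmp4 did not pass (adjusted p = 0.166 and 0.9998). The homeobox gene emx2 was at 2.16, 3.37, 50.5 and 136 CPM in members, against 0.849, 0, 4.69 and 86.1 CPM in the other cells (log2 change 1.58 ± 0.39, adjusted p = 0.0398). With 1 library left out, the call was lost for emx2 (without second 18, 20 or 24 hpf, adjusted p to 0.284) and bmp4 (without second 18 or 20 hpf, adjusted p to 0.179).

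At 24 and 30 hpf enough other cells also held 3 markers, 56 and 32 of them with dlx6a or hand2, to ask how members differed from cells that shared their markers. In this comparison, added after the data were seen, 84 genes (1.84%) were higher in members and 65 (1.42%) lower, of 4572 tested (3.26% either way). The comparison cells were chosen for dlx6a or hand2 and the members for lacking both, so the arch genes are given as a description alone. The log2 change was -3.35 for dlx5a, -2.57 for barx1 and -2.77 for msx1a. Higher in members were col1a2 (log2 change 2.92 ± 0.28, adjusted p = 4.26e-06), cthrc1a (log2 change 2.40 ± 0.33, adjusted p = 2.31e-04) and ebf2 (log2 change 2.73 ± 0.43, adjusted p = 7.23e-04). The transcription factor gene tfap2a was also higher (log2 change 1.83 ± 0.28, adjusted p = 4.92e-04), as was ednrab, an endothelin receptor gene of NC (log2 change 1.11 ± 0.14, adjusted p = 6.54e-05). Only 2 libraries entered this fit.

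Signalling genes showed scattered differences. Of 19 tested BMP and TGF-beta genes, 3 were higher (bmp5, nog1 and id3) and none lower against all other cells. This balance depended on the comparison cells. Against others that also lacked dlx6a and hand2, 7 of 18 were higher and 1, id2a, was lower. Against others with 3 markers and dlx6a or hand2, 1 of 11, bmp5, was higher and 4 were lower (bmpr1ba, nog2, fsta and id1). The ligand gene bmp5 was at 78.4, 145, 219.7 and 104 CPM in members, against 34.6, 70.07, 142 and 58.5 CPM in the other cells (log2 change 0.94 ± 0.11, adjusted p = 1.66e-04), higher in members of 4 of 4 libraries. The antagonist gene nog1 had 81.8% of its member UMIs in the cxcl12a clusters. Of 9 tested Hedgehog genes, the co-receptor boc and the antagonist hhip were higher and cdon lower. The gene boc was at 86.0, 80.3, 119 and 131 CPM in members, against 54.4, 44.2, 56.3 and 79.6 CPM in the other cells (log2 change 0.81 ± 0.11, adjusted p = 4.11e-04). Of 23 tested genes of FGF, PDGF and other growth factors, 3 receptors (fgfr2, pdgfra and pdgfrb) were higher, and fgfrl1b and erbb3b were lower. Of 22 tested Wnt genes, tcf7l1a and rspo3 were higher and none was lower. Retinoic acid genes numbered 8, of which crabp2a was higher. Against others that also lacked dlx6a and hand2, its change was 1.04 (adjusted p = 0.895), and cyp26c1 and rarga were called higher in its place. A fit to 3 libraries lost the call of nog1 (without second 18 or 20 hpf, adjusted p to 0.318), cdon (without second 18, 20, 24 or 30 hpf, adjusted p to 0.232), hhip (without second 18 or 20 hpf, adjusted p to 0.806), fgfr2 (without second 18 or 20 hpf, adjusted p to 0.115), fgfrl1b (without second 18 hpf, adjusted p = 0.0745), tcf7l1a (without second 18, 20, 24 or 30 hpf, adjusted p to 0.374) and rspo3 (without second 18, 20 or 30 hpf, adjusted p to 0.419).

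Of 22 tested guidance and chemokine genes, 6 were higher (cxcl12a, cxcr4a, nrp2b, efna1b, epha4a and ephb3a) and 2 lower (cxcr4b and ackr3b). The receptor gene cxcr4a was at 28.4, 152, 171 and 83.5 CPM in members, against 13.3, 87.3, 54.0 and 11.4 CPM in the other cells (log2 change 1.24 ± 0.18, adjusted p = 8.90e-04). Its ligand gene cxcl12a was at 56.8, 69.0, 47.8 and 131 CPM in members, against 6.65, 3.11, 53.2 and 66.6 CPM in the other cells, with 78.6% of its member UMIs in the clusters that it led, and it did not pass when these clusters and the other-lineage cells were left out together (adjusted p = 0.612), although it passed without the other-lineage cells alone (adjusted p = 0.00333). The receptor gene cxcr4a held only 1.68% of its UMIs there. For cxcr4b and ackr3b, ackr3b being a scavenger of the same ligand, the calls were lost without other-lineage cells (adjusted p = 0.479 and 0.692). Of 21 tested adhesion genes, cdh11, a cadherin of mesenchyme, and pcdh18b were higher, and cdh1, cdh6, pcdh10a and lama5 were lower. The cadherin gene cdh11 was at 92.2, 90.1, 184 and 129 CPM in members, against 43.3, 50.1, 113 and 68.3 CPM in the other cells (log2 change 0.89 ± 0.10, adjusted p = 1.29e-04). The keratin gene krt18b, next to krt18a.1 in name but not read by the criteria, was at 76.5, 149.6, 211 and 119 CPM in members, against 34.8, 72.1, 103 and 76.4 CPM in the other cells (log2 change 1.01 ± 0.10, adjusted p = 4.64e-05). Leaving out a library ended the call for cxcl12a (without second 18, 20 or 30 hpf, adjusted p to 0.260), nrp2b (without second 18 or 20 hpf, adjusted p to 0.636), epha4a (without second 18, 20, 24 or 30 hpf, adjusted p to 0.374), ephb3a (without second 18, 20 or 30 hpf, adjusted p to 0.564), cxcr4b (without second 18 or 20 hpf, adjusted p to 0.392) and cdh6 (without second 18, 24 or 30 hpf, adjusted p to 0.100).

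Genes of early NC moved both ways. Of 14 tested early crest genes, 5 were lower (sox10, foxd3, crestin, cdh6 and vox) and 4 higher, among them sox5, id3 and cdh11, with a median of -0.0786. The summed level of the list was 2418, 1574, 1578 and 1068 CPM in members, against 2654, 1553, 1476 and 964 CPM in the other cells. The pioneer factor gene foxd3 was at 27.9, 13.5, 11.5 and 0 CPM in members, against 114, 67.3, 10.2 and 0 CPM in the other cells (log2 change -1.89 ± 0.25, adjusted p = 7.70e-04). The NC gene crestin was at 8.38, 6.13, 4.94 and 0 CPM in members, against 20.4, 17.3, 10.2 and 0 CPM in the other cells (log2 change -1.31 ± 0.22, adjusted p = 0.00377). The gene sox10 was at 670.5, 45.7, 70.3 and 41.7 CPM in members, against 989.8, 133, 199.5 and 115 CPM in the other cells (log2 change -1.13 ± 0.15, adjusted p = 4.18e-04), and it did not pass without other-lineage cells (adjusted p = 0.0828). The gene prdm12b, a zinc finger gene of sensory neuron precursors, was at 44.1, 12.6, 7.14 and 0 CPM in members, against 175, 93.2, 0.782 and 0 CPM in the other cells (log2 change -2.12 ± 0.31, adjusted p = 0.00148). Of 5 tested pigment genes, gch2, an enzyme of pteridine synthesis in yellow pigment cells, was lower, at 1.08, 5.21, 16.5 and 0 CPM in members, against 55.4, 114, 9.39 and 0 CPM in the other cells (log2 change -3.34 ± 0.63, adjusted p = 0.00876). In cells with a dlx2a UMI alone its change was 0.42 (adjusted p = 0.895). The levels of foxd3 and prdm12b were below those of the others at the second 18 and 20 hpf, and sox10 in every library. At 24 hpf both prdm12b and gch2 had a higher CPM in members, and neither was detected in either class at 30 hpf. Without 1 library the call failed for foxd3 (without second 18 or 20 hpf, adjusted p to 0.0531), crestin (without second 18 or 20 hpf, adjusted p to 0.116), prdm12b (without second 18 or 20 hpf, adjusted p to 0.122) and gch2 (without second 18 or 20 hpf, adjusted p to 0.391).

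Some Hox and TALE genes were lower in members. Of 10 tested, 3 were lower (hoxa2b, meis1a and meis1b) and none higher, with a median of -0.92. The gene hoxa2b, which marks the second and more posterior arches, was at 0, 0, 6.59 and 100.2 CPM in members, against 5.66, 0.690, 35.2 and 163 CPM in the other cells (log2 change -1.60 ± 0.39, adjusted p = 0.0351). It was detected in 0, 0, 3.85 and 28.9% of members, against 3.47, 1.32, 17.4 and 55.3% of the other cells and 0, 0, 0 and 0% of spi1b-positive cells. Its call was also lost when doublets were left out (adjusted p = 0.0638), in cells with dlx2a (adjusted p = 0.0979) and without the cxcl12a clusters and other-lineage cells (adjusted p = 0.102). The cofactor gene meis1b was at 0.541, 1.84, 7.14 and 48.0 CPM in members, against 14.001, 9.67, 35.2 and 69.9 CPM in the other cells (log2 change -2.05 ± 0.38, adjusted p = 0.00586). Calls that failed without a library were those of hoxa2b (without second 18, 20 or 24 hpf, adjusted p to 0.182) and meis1a (without 24 hpf, adjusted p = 0.128). Against all other cells, edgeR called no gene of the S phase (22 tested, 0 at an unadjusted p under 0.05), of G2 and M phase (26 tested, 17) or of cell cycle arrest and p53 (14 tested, 2), and the DESeq2 Wald test called none of the 3 lists either. Over all genes, 995 of 8944 had an unadjusted p under 0.05, a smaller share than in the G2 and M list. The median log2 change of that list was 0.29, beside -0.0030 over all genes, with no gene past the adjusted threshold. Its summed level was 9323, 10896, 14226 and 11809 CPM in members, against 8725, 9907, 12757 and 10220 CPM in the other cells. Other comparisons called single genes of these lists. With others that also lacked dlx6a and hand2, cenpe was higher in members and cdkn1ca and gadd45bb were lower. Against others with 3 markers and dlx6a or hand2, cdkn1ca, plk1, ube2c and btg2 were higher and ccnd1 and gadd45ba were lower. In the test of later against earlier effects pcna, ccnd1 and gadd45ba were more negative later and cdkn1ca more positive.

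The last question was how the members themselves differed among the stages of the timeline. With 1 library per stage this is a description, without a test. Of 6528 genes with at least 20 UMIs in 1 of the 3 member profiles, 57 (0.873%) were higher at 24 than at 20 hpf and again at 30 hpf with no overlap of their 95% Poisson intervals, and 59 (0.904%) were lower in the same way. Increasing genes included the matrix genes tnn (2.76, 59.9 and 252 CPM at 20, 24 and 30 hpf), col1a2 (21.5, 96.7 and 255 CPM at 20, 24 and 30 hpf), hapln1a (7.97, 89.5 and 188 CPM at 20, 24 and 30 hpf) and dcn (decorin, 12.3, 52.7 and 108 CPM at 20, 24 and 30 hpf). They included the homeobox gene emx2 (3.37, 50.5 and 136 CPM at 20, 24 and 30 hpf), the LIM homeobox gene lhx6 of arch mesenchyme (0, 12.6 and 54.2 CPM at 20, 24 and 30 hpf) and the POU gene pou3f3b (0, 6.59 and 121 CPM at 20, 24 and 30 hpf). Members at 20 hpf held no UMI of lhx6 or pou3f3b. Falling genes included dlx3b (361, 285 and 48.0 CPM at 20, 24 and 30 hpf), ednrab (1034, 759 and 269 CPM at 20, 24 and 30 hpf), the prostaglandin D synthase gene ptgdsb.1 (225, 102 and 12.5 CPM at 20, 24 and 30 hpf) and inka1a, a gene of migrating NC (443, 258 and 100.2 CPM at 20, 24 and 30 hpf).

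Some of these courses were shared with the other twist1a-positive cells. The gene ednrab was at 1350.0, 379 and 112 CPM in the others at 20, 24 and 30 hpf, so it was lower later in both classes, and its later class effect was more positive (1.25 ± 0.11, adjusted p = 9.87e-09). For dlx3b the courses went apart, since the others were at 386, 709 and 567 CPM (later minus earlier effect -1.77 ± 0.20, adjusted p = 2.44e-07). The choice of members without dlx6a and hand2 sets this to some extent. The gene pou3f3b reached 121 CPM in 30 hpf members, against 26.0 CPM in the other 30 hpf cells. The 30 hpf member profile came from 38 cells, 8 of them in the cxcl12a clusters, and 8.26% of the tnn UMIs and 5.63% of the pou3f3b UMIs of members of the 4 libraries came from those clusters.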

How the data were processed

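Single-cell RNA was measured in 7 libraries of sorted zebrafish NC cells, 6 in a timeline table and 1 (second 18 hpf) in a table of its own. The deposited values are UMI counts per gene and cell, made by the authors from reads mapped with Cell Ranger, with cells of low quality removed by the authors. The paper also states that the timeline libraries were aggregated with Cell Ranger. Whether that step brought them to equal depth is not given. The submitters' processing notes also name Seurat 3 and the build GRCz11. The tables hold counts and no normalized values, and no column was left unused. Timeline cells were assigned to libraries by the number that ends each barcode.

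A filter on cells (minimum 500 genes, maximum 10% of counts from mitochondrial genes) removed 0 cells. Doublets were called with Scrublet in scanpy 1.11.5 and kept, and their removal was an alternative. Leiden clusters (resolution 0.8, 20 neighbours, 13 components, 2000 variable genes, seed 1) were made for each table without the 14 genes of the criteria. Thinning drew 10000 UMIs per cell and left out shallower cells.

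UMI counts were summed per library and class where a library held 10 or more cells of both classes, filtered with filterByExpr, scaled by TMM and tested with edgeR 4.0.16 (glmQLFit and glmQLFTest, library as a block, Benjamini-Hochberg over the genes tested, threshold 0.05), with DESeq2 1.42.0 as an alternative. The standard error is the absolute log2 change divided by the square root of F. The fit was tested on simulated data. Genes were looked up by symbol in both tables (16600 shared). Named genes were those of the criteria, the 12 largest called changes each way with the same sign in 4 libraries and at least 40 UMIs in the higher class, and members of fixed lists with at least 40 UMIs in either class that a list's description needed. A few genes with fewer UMIs are named only as listed calls, as leading genes of clusters or as genes of the stage description, chosen after their values were seen. The cells, lists and tests were chosen with earlier results of these data known. Members and others of a library are cells of the same embryos, so p-values measure the spread of their difference over 4 libraries that also differ in stage and chemistry. Some genes, 1 of the markers among them, are not reported here. Sequences and genome positions are not given, since no genome of this build was used here.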

Additional observations from a re-analysis of the deposited data

Results flagged for a closer look

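For the genes below, the difference between members and other twist1a-positive cells was not the same at the later stages (24 and 30 hpf) and at the earlier ones (second 18 and 20 hpf). Each value is the later minus the earlier log2 change of members over other cells, ± its standard error, with the adjusted p of edgeR's interaction term over 8944 genes, of which 157 were called and 876 had an unadjusted p under 0.05. Each period holds 2 libraries. This fit was added after the data were seen, and stage, chemistry of the second 18 hpf library and make-up of the other cells cannot be told apart in it.

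Arch genes had a more negative class effect later: dlx5a (-2.96 ± 0.20, adjusted p = 7.69e-12), dlx4b (-2.24 ± 0.22, adjusted p = 4.96e-08), barx1 (-2.93 ± 0.30, adjusted p = 5.10e-08), dlx3b (-1.77 ± 0.20, adjusted p = 2.44e-07), msx1a (-3.10 ± 0.50, adjusted p = 1.78e-04), dlx1a (-1.30 ± 0.29, adjusted p = 0.0105) and grem2b (-0.73 ± 0.09, adjusted p = 2.33e-06). Members were chosen to lack dlx6a and hand2, while most others held either gene at 24 and 30 hpf but not earlier. A more negative later effect of genes expressed with those 2 is thus set to some extent by the choice of cells. The arch values are a description, and their p-values are not evidence of a change in members. A more positive effect later was found for ednrab (1.25 ± 0.11, adjusted p = 9.87e-09), inka1a (1.499 ± 0.19, adjusted p = 3.51e-06), tfap2a (1.77 ± 0.23, adjusted p = 3.63e-06), dcn (1.84 ± 0.36, adjusted p = 0.00198), col1a2 (1.26 ± 0.31, adjusted p = 0.0254) and cxcr4a (0.95 ± 0.24, adjusted p = 0.0343). Genes of early NC, pigment and other lineages that were below the other cells earlier and not later were gch2 (5.59 ± 0.56, adjusted p = 5.10e-08), prdm12b (5.35 ± 1.05, adjusted p = 0.00264), foxd3 (2.32 ± 0.51, adjusted p = 0.0100) and bmp4 (4.196 ± 0.95, adjusted p = 0.0108). At 24 and 30 hpf few cells of either class held gch2 or prdm12b, and the bmp4 counts of members were 4 and 4 UMIs. Genes whose class effect was more positive earlier than later were cxcl12a (-3.14 ± 0.34, adjusted p = 1.28e-07), tcf21 (-9.89 ± 2.37, adjusted p = 0.0197), ccn1 (-1.16 ± 0.18, adjusted p = 7.19e-05), snai1a (-1.10 ± 0.23, adjusted p = 0.00490) and foxd2 (-0.999 ± 0.25, adjusted p = 0.0261). The later effect was also more negative for foxd1 (-1.85 ± 0.19, adjusted p = 5.57e-08), edn1 (-9.37 ± 1.79, adjusted p = 0.00188), ccnd1 (-0.49 ± 0.09, adjusted p = 0.00157), gadd45ba (-1.24 ± 0.28, adjusted p = 0.0105) and pcna (-0.30 ± 0.08, adjusted p = 0.0430), and more positive for cdkn1ca (1.34 ± 0.22, adjusted p = 1.93e-04). Of the member UMIs of cxcl12a, 78.6% lay in the 30 cells of the cxcl12a clusters, and at 24 hpf its level in members was below that of the others. No member outside those clusters held tcf21. Within them 3 and 5 members held it at the second 18 and 20 hpf and none later.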

How the results depend on the processing

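The count of genes higher in members was 111, and of genes lower 214. With each library left out in turn the counts ran from 53 to 120 higher and from 63 to 247 lower. Higher and lower genes numbered 56 and 50 with the DESeq2 Wald test, 230 and 501 with no filter on low counts, 69 and 110 with cells thinned to 10000 UMIs, and 0 and 0 without the library block. Against other cells without other-lineage UMIs 54 were lower, and against those also without dlx6a or hand2, 225 were higher and 103 lower. Chosen after seeing the data, cells with dlx2a gave 66 and 24, cells outside the cxcl12a clusters and without other-lineage UMIs 62 and 40, and others with 3 markers and dlx6a or hand2 gave 65 lower. Of 1828 refits of genes named in the text, 1451 kept the call, 371 lost it in the same direction and 6 turned. The block accounted for 69 of the losses and the DESeq2 Wald test for 49. Turned log2 changes were bmp4 0.0271 without other-lineage cells, cdh1 0.22, msx3 0.40 and twist1b 0.0603 also without dlx6a or hand2 cells, and cdh1 0.0272 and gch2 0.42 in dlx2a cells. The cause was not tested.

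The share of members among twist1a-positive cells was 47.8% (second 18 hpf), 71.3% (20 hpf) and 21.8% (first 18 hpf) with 2 markers asked for, and 19.8%, 34.1% and 1.82% with 4, when it was 0% at 14 hpf. Thinned, it was 18.6%, 37.7% and 3.61%. Without npb, added after seeing the data, it was 43.6% at 20 hpf. The largest share of members in 1 cluster was 45.2% in the timeline table (65.0% at resolution 0.4, 24.8% at 1.2) and 73.3% in the second table (93.3% and 58.3%).

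No paired analysis was possible because each stage holds 1 library and the labels give no replicate number. This concerns pairs of libraries, while the members and others of a library were paired by the library block. Depth limited the 30 hpf values, from 38 members, and genes under 10 UMIs.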
